A study of Rattus norvegicus with 111 samples.

Results

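The measurements described here come from the fetal livers of rat litters whose dams were dosed with PFO5DoA at 30 mg/kg/d, set against the fetal livers of vehicle controls. They comprised 3 libraries at 30 mg/kg/d (dams 2285, 2287 and 2288) and 5 control libraries (dams 2263, 2264, 2265, 2278 and 2280), 8 of the 111 libraries of the series. Pregnant Sprague-Dawley rats (Crl:CD(SD)), about 11 to 12 weeks old on purchase, were dosed orally from gestational day 18 to 22 with PFO5DoA or, as controls, with the 0.5% Tween-80 vehicle alone at 0 mg/kg/d. Livers were taken 2 to 4 hours after the last dose. By gestational day 22 the dams at 30 mg/kg/d weighed about 17% less than controls, and the labels report apparent fetotoxicity in 1 dam of that group without saying which. Each library stood for a single litter, and the labels do not say how many fetuses it held. Dam 2286, also dosed at 30 mg/kg/d, had a maternal library alone, and control dam 2279 was left out because its fetal library held 45505 counts.

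PFO5DoA is a perfluoroalkyl ether carboxylic acid, a fluorinated chain interrupted by ether oxygens, and is the longer homologue of PFO4DA, with an additional difluoromethoxy unit. Perfluoroalkyl acids are known to activate nuclear receptors of rat liver such as PPAR-alpha, which drives genes of fatty acid oxidation. The rat fetal liver near term is both a blood-forming organ and a liver that is taking up its metabolic functions, and it receives such compounds through the placenta. Expression was measured with TempO-Seq, in which pairs of detector oligos are ligated on each target RNA and the ligation products are sequenced and counted.

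The fetal libraries were chosen by the data, because the column names give the dam and not the life stage. Of a dam's 2 libraries, the one whose log2(CPM + 1) profile (CPM, counts scaled to the library total) correlated better with the single library of dam 2286, labelled maternal, was taken as maternal and the other as fetal. In the 8 dams compared, the fetal libraries had a Pearson r of 0.8716 to 0.9157 with that library and the maternal libraries 0.943 to 0.9876, so the ranges did not overlap. The smallest gap within a dam was 0.0567. Since every gene entered that choice, a difference in level between fetal and maternal liver is not a result here. The files identify genes by Ensembl gene ID and do not pair the IDs with names, and 0 of the 20311 IDs matched the reference table. The fetal label could therefore not be checked against marker genes, and genes are described as groups, with 4 IDs as examples.

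Totals were similar in both groups, 9760578 to 10310391 counts per library at 30 mg/kg/d and 9694608 to 11809874 counts in the controls. The dosed libraries resembled each other closely, with a Pearson r of 0.971 to 0.977 over the tested genes. Control pairs with neighbouring dam identifiers (2263 to 2265, or 2278 and 2280) had r of 0.949 to 0.976, and control pairs across those runs of identifiers 0.907 to 0.965. Dosed libraries had r of 0.893 to 0.922 with controls 2278 and 2280 and of 0.872 to 0.910 with controls 2263 to 2265. The dosed dams carry identifiers from 2285 upwards, and the labels do not say what the numbering marks.

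The main comparison asked which genes differed in fetal liver between 30 and 0 mg/kg/d PFO5DoA. Of 10893 genes tested, 1138 rose and 1274 fell, which is 10.4% and 11.7% of the genes tested (edgeR's quasi-likelihood test, Benjamini-Hochberg adjusted p under 0.05). By the median the falls were larger than the rises, with a log2 fold change of -1.28 for genes that fell and 1.00 for genes that rose. The median over all genes tested was -0.02. At least 2-fold changes were fitted for 565 rises and 867 falls, at least 8-fold changes for 92 rises and 122 falls, and at least 16-fold changes for 53 rises and 49 falls. With the control dams 2278 and 2280 alone, whose identifiers are nearest to those of the dosed dams, 2394 genes changed, of which 1665 were called in the same direction with all 5 controls. The total of 2412 fell to 1484 without dam 2287 and to 1159 without dam 2288, each of which leaves 2 dosed libraries. When libraries were scaled by their totals alone, the median of all genes shifted to 0.23 and 70.7% of the called genes were higher at 30 mg/kg/d, against 47.2% with TMM scaling, so the balance of rises and falls depends on the scaling. The same shift enters the fitted sizes of rises and falls.

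**Figure D1:**
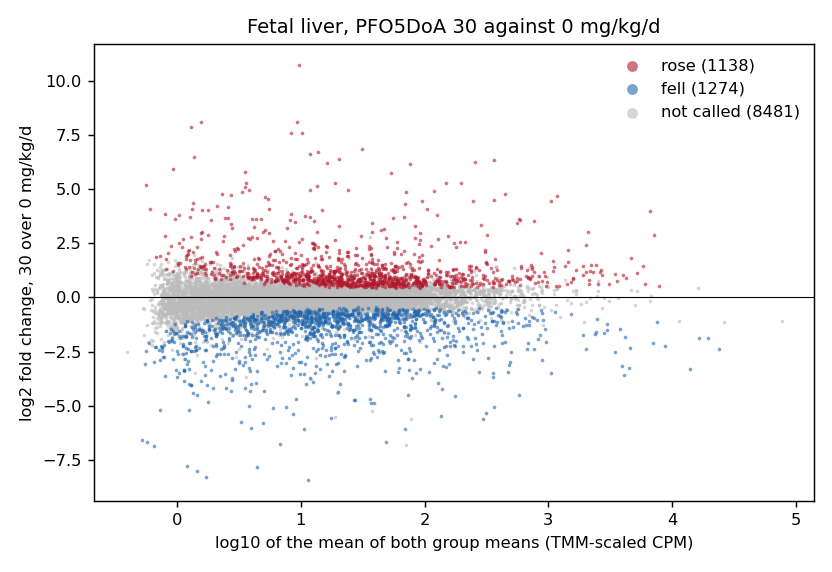
Log2 fold change of fetal liver at 30 over 0 mg/kg/d PFO5DoA (vertical axis) against the log10 of the mean TMM-scaled CPM of both groups (horizontal axis), 1 point per tested gene. The 1138 genes that rose and the 1274 that fell lie over the whole range of levels, among 8481 genes that were not called.

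The changed genes included many of the abundant transcripts of the fetal liver. When genes were classed by their mean level in the fetal controls of PFO4DA, libraries that took no part in the comparison, 23.3% of the 232 genes at 500 CPM or more rose and 34.5% fell. In the class from 50 to 500 CPM, 11.9% of 1870 genes rose and 18.7% fell. From 5 to 50 CPM, 10.8% of 5331 genes rose and 11.3% fell, and below 5 CPM 8.21% of 3460 genes rose and 6.99% fell. Lower counts give less power to call a change, so the increase with level is a count of calls and not a measure of effect size.

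The composition of the libraries moved accordingly. Genes that rose held 29.6%, 34.1% and 34.9% of all counts in the 3 libraries at 30 mg/kg/d, against 9.92% to 13.7% in the 5 controls. Genes that fell held 11.2%, 13.3% and 11.0% of the counts at 30 mg/kg/d, against 33.3% to 36.8% in the controls. These shares describe genes selected on the same libraries and carry no test. The 10 called genes with the largest loss summed to 35722 CPM at 30 mg/kg/d and 178479 CPM in the controls, with log2 fold changes from -3.57 to -1.87. The 10 with the largest gain summed to 75538 CPM at 30 mg/kg/d and 23705 CPM in the controls. The 10 most abundant genes of each library, whichever they were, took 14.7% to 23.1% of the counts at 30 mg/kg/d and 27.6% to 38.7% in the controls, so the groups did not overlap.

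**Figure D2:**
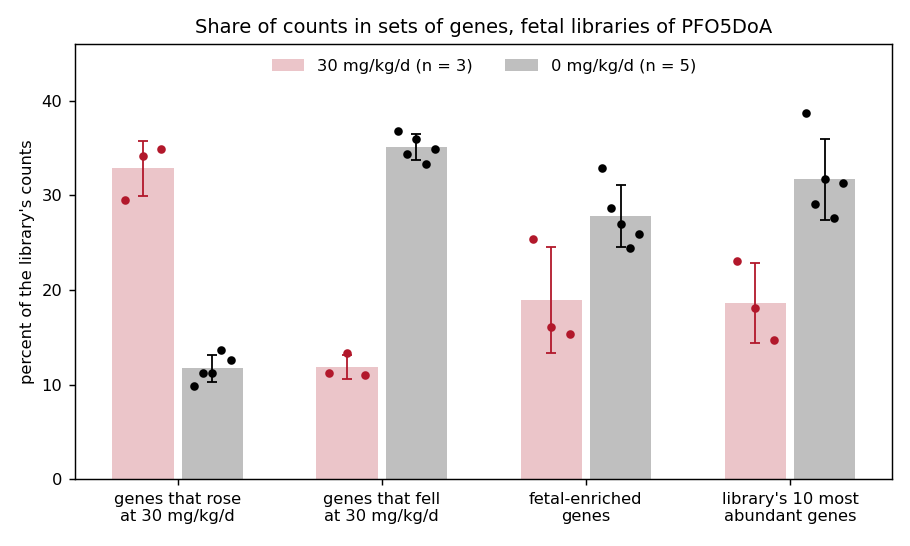
Percent of each fetal library's counts held by 4 sets of genes, at 30 mg/kg/d PFO5DoA (red, n = 3) and 0 mg/kg/d (black, n = 5), with points for libraries, bars for means and error bars for the SD. The first pair of sets was selected on these libraries. The fetal-enriched genes came from PFO4DA controls and held 18.9% on average at 30 mg/kg/d against 27.8% in the controls. The 10 most abundant genes, picked anew in each library, held 18.6% at 30 mg/kg/d against 31.7% in the controls.

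The extremes of the change are shown by 4 IDs. They are the 2 largest fitted rises and the 2 largest fitted falls among called genes with a mean of at least 5 CPM in either group and every dosed library outside the range of the controls. Since they were selected on these libraries, their values are a description. ENSRNOG00000001794 had 13.6, 22.3 and 22.7 CPM (TMM-scaled) at 30 mg/kg/d and no count in any of the 5 controls. Against a floor of 3 counts over the control group, it was at least 407-fold higher at 30 mg/kg/d (edgeR, adjusted p = 4.2e-05). Set against the 6 fetal controls of PFO4DA, where some libraries had counts, its fitted log2 rise was 5.95 ± 0.62 (standard error), so the size of the rise depends on the controls used. ENSRNOG00000027341 had 17.6, 10.6 and 28.1 CPM at 30 mg/kg/d, against 0 to 0.183 CPM in the controls, where only dams 2265 and 2280 had any count. From 678 counts at 30 mg/kg/d and 3 in the controls, the ratio was 395, with an exact 95% interval of 134 to 1918 that covers counting error only (edgeR, adjusted p = 1.13e-05).

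The falls were as steep. ENSRNOG00000069588 had 0.0832, 0.086 and 0 CPM at 30 mg/kg/d, a total of 2 counts, against 19.2, 20.4, 20.7, 22.6 and 31.2 CPM in the controls. The controls were 348-fold higher by counts, and the exact 95% interval for counting error ran from 96.0 to 2874 (edgeR, adjusted p = 1.56e-06). ENSRNOG00000023895 had a single count at 30 mg/kg/d, in dam 2285, against 5.50 to 11.2 CPM in the controls. The controls were 268-fold higher by counts, and the exact interval ran from 47.9 to 10609 (adjusted p = 1.83e-05 by edgeR). Both genes were close to the detection floor in all 3 litters and readily detected in all 5 control litters.

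Across the doses of PFO5DoA the 4 IDs followed different courses in fetal liver. The doses share the same 5 controls, so the levels are given side by side without a test. ENSRNOG00000069588 averaged 22.9 CPM at 0, 14.2 at 0.1, 24.3 at 0.3, 4.97 at 1, 2.77 at 3, 0.218 at 10 and 0.0564 at 30 mg/kg/d, and all its libraries lay below the control range at 0.1 mg/kg/d and from 1 mg/kg/d upwards, but not at 0.3 mg/kg/d. ENSRNOG00000023895 averaged 8.90 CPM at 0, 7.05 at 0.1, 7.56 at 0.3, 4.70 at 1, 1.11 at 3, 0.315 at 10 and 0.0277 at 30 mg/kg/d. Its libraries were all below the control range from 1 mg/kg/d upwards. ENSRNOG00000001794 was at 0 in all libraries at 0 and 0.3 mg/kg/d, ranged from 0 to 2.06 CPM at 1 mg/kg/d, from 2.23 to 7.36 CPM at 3 mg/kg/d and from 1.03 to 7.66 CPM at 10 mg/kg/d, and reached 13.6 to 22.7 CPM at 30 mg/kg/d. It was also detected at 1.85 CPM in 1 of the 2 libraries at 0.1 mg/kg/d. ENSRNOG00000027341 stayed at or below 0.275 CPM in every fetal library up to 3 mg/kg/d. At 10 mg/kg/d it lay between 0.158 and 0.25 CPM in 3 libraries and at 3.72 CPM in dam 2284, so only the 30 mg/kg/d group had it above 5 CPM.

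**Figure D3:**
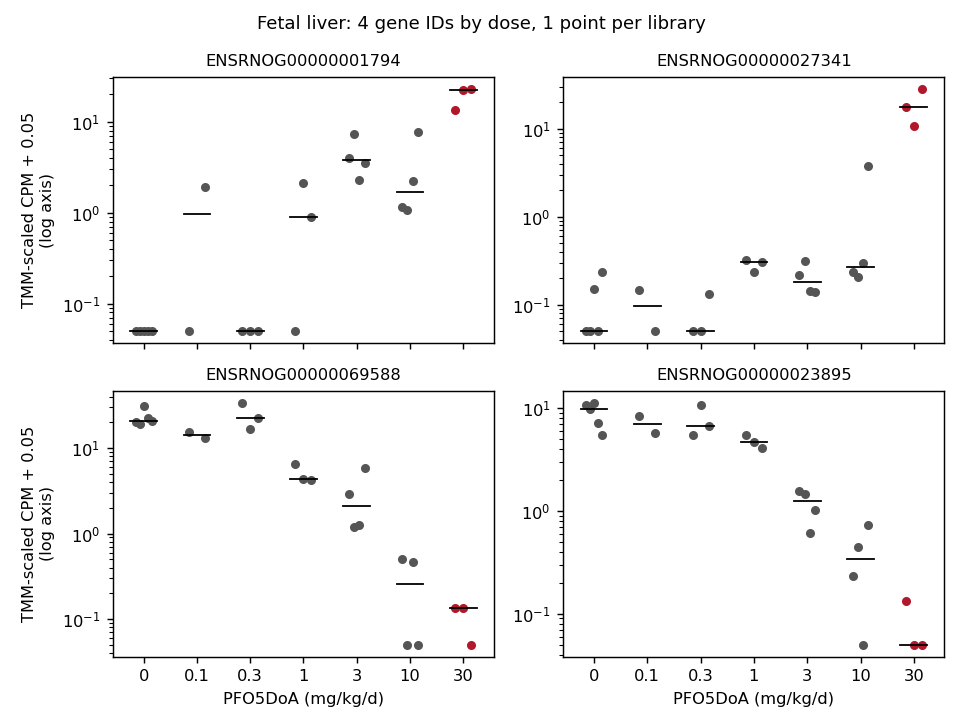
Level of 4 gene IDs in the fetal liver of each PFO5DoA litter, as TMM-scaled CPM plus 0.05 on a log axis, by dose in mg/kg/d, with 1 point per library, medians as lines and the 30 mg/kg/d libraries in red. The falling IDs (lower panels) are below the controls from 1 mg/kg/d upwards, whereas ENSRNOG00000027341 is above 5 CPM at 30 mg/kg/d alone.

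To see which life stage the changed genes belong to, lists were made from the control dams of PFO4DA, which took no part in the comparison. A gene was called fetal-enriched where the fetal library exceeded the maternal library of the same dam at least 4-fold in every one of the 6 control dams, with a mean of at least 5 CPM in fetal liver, and maternal-enriched by the converse. The lists rest on the same assignment of stage. All 453 fetal-enriched genes were tested in fetal liver, and at 30 mg/kg/d PFO5DoA 147 of them (32.5%) fell and 13 (2.87%) rose, against 11.7% and 10.4% of all genes tested. Their median log2 fold change was -0.57, against -0.02 over all genes. The list asks for at least 5 CPM in fetal liver, whereas the genes tested include many below that level. The share of genes called as falling grew with level, from 6.99% below 5 CPM to 34.5% at 500 CPM or more. The list was not compared with genes of matched level. By litter, the median of the list relative to the control mean was -0.35 in dam 2285, -0.63 in dam 2287 and -0.63 in dam 2288 on the log2 scale, against -0.25 to 0.16 in the controls. Dam 2285 thus lay nearest to the lowest control, dam 2278. The fetal-enriched genes held 25.4% of the counts in dam 2285, 16.1% in dam 2287 and 15.4% in dam 2288, against 24.4% to 32.9% in the controls, so by share of counts dam 2285 overlapped the controls. With control dams 2278 and 2280 alone, 130 fell and 17 rose, while 1229 fell and 1165 rose among all 10974 genes tested. The number of falls was 67 without dam 2287 and 65 without dam 2288, fits that also called fewer genes in all. It was 82 with scaling by library totals, where 771 of all 10893 genes tested fell. In the maternal liver of the same dams 228 of the fetal-enriched genes were tested. There 33 fell and 24 rose, against 13.2% and 14.6% of all genes, with a median of -0.39 against -0.03. The fetal effect less the maternal effect had a median of -0.002 over the 453 genes, against 0.13 over all genes. It was lower for 42 and higher for 12 of them, against 4.07% and 4.65% of all genes. In whole tissue, fewer cells of a type and less RNA per cell cannot be told apart.

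Maternal-enriched genes did not move the opposite way as a group. Of 259 such genes 206 were tested in fetal liver, and 70 (34.0%) fell while 32 (15.5%) rose, against 11.7% and 10.4% of all genes tested. Their median log2 fold change was -0.49. In this list 36.4% of the tested genes had a positive fitted change, against 48.6% of all genes tested. Most of the list was thus lower at 30 mg/kg/d, although it held called rises as well as falls. Its share of the fetal counts was 2.17% to 3.35% at 30 mg/kg/d and 1.46% to 1.87% in the controls, higher in all 3 litters although its median gene was lower. In other words, the list's summed level and its median differ in sign. The share was not highest at 30 mg/kg/d: it was 2.91% to 4.42% at 3 mg/kg/d and 3.46% to 6.53% at 10 mg/kg/d. At doses up to 10 mg/kg/d the median of this list stayed between -0.18 and 0.17 in every library, and it was -0.25 to -0.62 at 30 mg/kg/d. The fetal-enriched list was between -0.48 and 0.12 at 10 mg/kg/d and between -0.33 and 0.24 at 3 mg/kg/d. For the higher of these doses, dams 2276 and 2277 had -0.02 and 0.12, and dams 2283 and 2284 had -0.48 and -0.44. Both latter dams lay below dam 2285 of the top dose (-0.35). The lower dose had no such split, with 0.24 in dam 2281 and -0.33 in dam 2282. All dams of the top dose carry later identifiers, as does the lowest control, dam 2278 (-0.25). Beyond the fit with control dams 2278 and 2280 alone, what dose and identifier each contribute was not tested. In the maternal liver of the dams compared at 30 and 0 mg/kg/d, 102 of the 259 maternal-enriched genes fell and 19 rose. Of all genes tested there, 13.2% fell and 14.6% rose. The median was -0.78, against -0.03 over all genes. The fetal effect less the maternal effect had a median of 0.37 over the maternal-enriched genes, against 0.13 over all genes. It was higher for 55 and lower for 29 of them, against 4.65% and 4.07% of all genes.

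**Figure D4:**
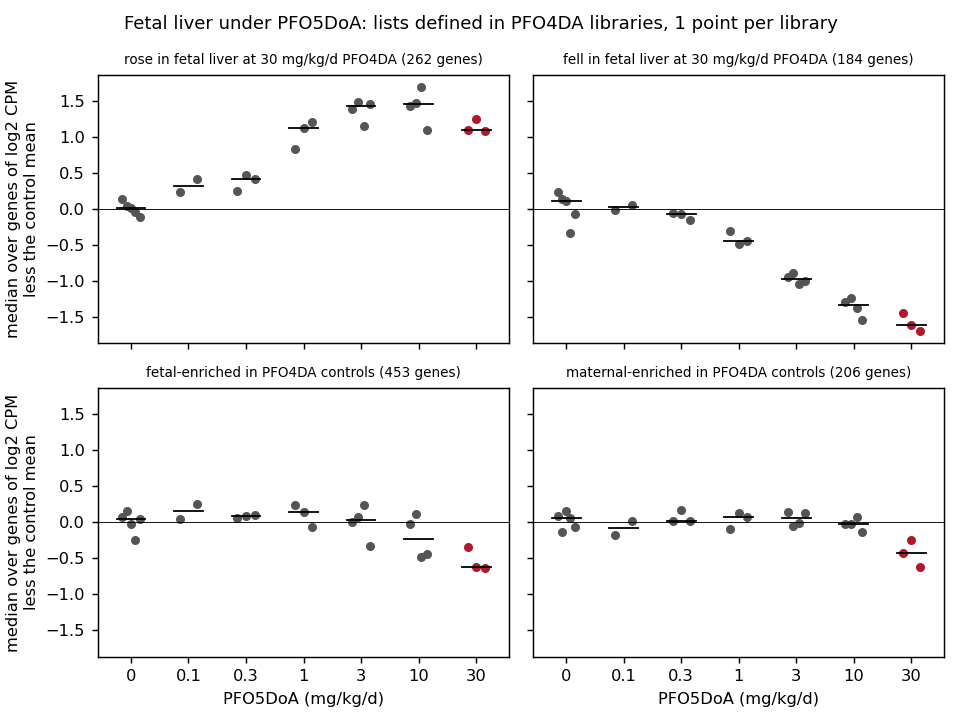
Median over the genes of a list of log2 CPM less the mean of the PFO5DoA controls (vertical axis), for each fetal library of PFO5DoA by dose in mg/kg/d, with lines for medians over libraries and the 30 mg/kg/d libraries in red. The lists come from PFO4DA libraries. The genes that rose under PFO4DA are near 1.4 from 3 mg/kg/d and near 1.1 at 30 mg/kg/d, the genes that fell are lowest at 30 mg/kg/d, and the stage lists have their lowest median over libraries at 30 mg/kg/d.

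The next comparison asked whether the fetal liver responded like the liver of its own dam. In the maternal libraries of the same 8 dams, 1429 of 9809 genes (14.6%) rose and 1290 (13.2%) fell at 30 mg/kg/d, a total of 2719 that was 1456 without the maternal library of dam 2287 and 1356 without that of dam 2288. Among the 9447 genes tested in both livers, 499 rose in both, which is 47.1% of the 1059 fetal rises and 35.7% of the 1398 maternal rises. A further 409 fell in both, 38.1% of the 1073 fetal falls and 33.3% of the 1229 maternal falls. Opposite directions were rarer, with 26 genes that rose in fetal and fell in maternal liver and 37 that fell in fetal and rose in maternal liver. Without the fetal library of dam 2288, 300 maternal rises were also called as fetal rises and 237 maternal falls as fetal falls, in a fit that called fewer fetal genes in all. Across these genes the fold changes of the livers had a Pearson r of 0.517 and a Spearman rho of 0.478, a description over genes measured in litters and dams that share exposure.

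The difference between the livers was tested directly, as the fetal effect less the maternal effect with the dam as a block. Of 11362 genes, the fetal effect was higher for 528 (4.65%) and lower for 462 (4.07%), 990 in all (edgeR, adjusted p under 0.05). Of the 937 of these tested in both livers, 254 were called in fetal liver alone, 451 in maternal liver alone, 63 in both with opposite directions, 93 in both with the same direction and 76 in neither. Genes called in maternal liver alone made up the largest group. The total was 378 without dam 2287, 327 without dam 2288 and 979 with control dams 2278 and 2280 alone. Under RLE scaling the count was 1003, of which 39.9% were higher in the fetal effect, against 53.3% under TMM, so which direction prevails depends on the scaling. Among the 4 IDs, ENSRNOG00000001794 had no count in any maternal library of PFO5DoA at any dose. ENSRNOG00000069588 and ENSRNOG00000023895 had no count in the maternal libraries at 30 and at 0 mg/kg/d. ENSRNOG00000027341 averaged 0.42 ± 0.395 CPM in maternal liver at 30 mg/kg/d (SD, n = 3) and 0.468 ± 0.245 CPM in maternal controls (SD, n = 5), and the fetal effect on it was higher (edgeR, adjusted p = 4.84e-05). The maternal levels of these IDs were thus at or near the detection floor. For the IDs other than ENSRNOG00000027341 the difference could not be estimated, since the maternal libraries compared held no count. All 4 were selected for large changes in these fetal libraries, so the values are a description.

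**Figure D5:**
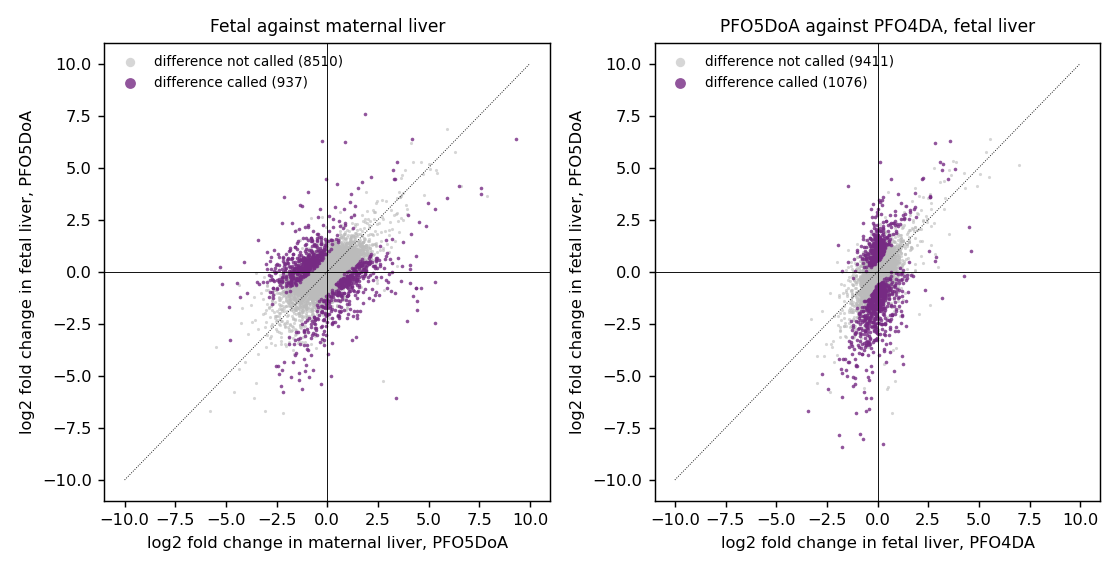
Log2 fold change of each gene in fetal liver at 30 over 0 mg/kg/d PFO5DoA (vertical axes) against that in maternal liver of the same dams (left, 9447 genes) and against that in fetal liver at 30 over 0 mg/kg/d PFO4DA (right, 10487 genes). Purple points are the 937 and 1076 genes whose effects differed at an adjusted p under 0.05, and the dotted line marks equal effects.

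The last comparison set PFO5DoA beside its shorter homologue PFO4DA in fetal liver at the matched dose of 30 mg/kg/d, with the same vehicle and dosing days and 4 dosed and 6 control litters. The groups were not matched in all else. The dosed PFO5DoA dams all carry later identifiers (2285 upwards). The dosed PFO4DA dams carry earlier (2306 and 2307) and later ones (2317 and 2318). The labels give the 17% lower dam weight for 30 mg/kg/d PFO5DoA alone. What these differences contribute was not tested. Under PFO4DA, 269 of 10617 genes (2.53%) rose and 186 (1.75%) fell, 455 in all, a count that was 296 without the litter of dam 2317 and 755 with DESeq2. Most of these genes also changed under PFO5DoA. Of the PFO4DA rises tested under both compounds, 157 of 262 (59.9%) rose and 10 fell under PFO5DoA, and the 157 made up 14.7% of the 1067 PFO5DoA rises. Of the PFO4DA falls, 140 of 184 (76.1%) fell and 3 rose under PFO5DoA, and the 140 made up 11.1% of the 1261 PFO5DoA falls. The medians of these lists in fetal liver at 30 mg/kg/d PFO5DoA were 1.08 and -1.61 on the log2 scale, against -0.02 over all genes tested. With control dams 2278 and 2280 alone, 158 of the first list rose and 123 of the second fell. In that fit 1165 rose and 1229 fell among all 10974 genes tested.

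The difference between the compounds was then tested gene by gene, as the PFO5DoA effect less the PFO4DA effect. Of the 269 genes that rose under PFO4DA, the PFO5DoA effect was higher for 38 and lower for 50 and the median log2 difference over the list was -0.07. Of the 186 genes that fell under PFO4DA, it was higher for 10 and lower for 52, with a median of -0.55. Both lists were selected on PFO4DA libraries that also enter this difference, so these counts are a description. Over all genes, the PFO5DoA effect was higher for 486 of 11303 genes (4.3%) and lower for 630 (5.57%), 1116 in all. Of the 1076 of these tested under each compound, 855 were called under PFO5DoA alone, 41 under PFO4DA alone, 91 under both in the same direction, 13 under both in opposite directions and 76 under neither. The total was 576 without the PFO5DoA litter of dam 2288. It was 351 when only the later dam identifiers of each compound were kept (2278 upwards for PFO5DoA, 2308 upwards for PFO4DA), a fit with fewer libraries.

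The 4 IDs were also compared between the compounds. They were selected as extremes on PFO5DoA libraries that enter this difference, so its sizes and adjusted p are a description. ENSRNOG00000023895 averaged 2.26 ± 0.618 CPM at 30 mg/kg/d PFO4DA (SD, n = 4) and 8.31 ± 2.40 CPM in the PFO4DA controls (SD, n = 6), and fell by 1.89 on the log2 scale (edgeR, adjusted p = 0.00106). The PFO5DoA effect was lower by a fitted log2 difference of -5.91 (edgeR, adjusted p = 4.47e-05), a size that rests on a single count at 30 mg/kg/d PFO5DoA. ENSRNOG00000069588 averaged 3.91 ± 1.75 CPM at 30 mg/kg/d PFO4DA (SD, n = 4) and 13.1 ± 11.1 CPM in its controls (SD, n = 6), and the change under PFO4DA was not called (adjusted p = 0.172 by edgeR). The fitted log2 difference between compounds was -6.64 (adjusted p = 0.00159 by edgeR) and rests on 2 counts at 30 mg/kg/d PFO5DoA. ENSRNOG00000001794 averaged 0.908 ± 0.730 CPM at 30 mg/kg/d PFO4DA (SD, n = 4) and 0.289 ± 0.513 CPM in the PFO4DA controls (SD, n = 6), so it was not at 0 in all controls of the series. ENSRNOG00000027341 averaged 0.175 ± 0.0928 CPM at 30 mg/kg/d PFO4DA (SD, n = 4) and 0.110 ± 0.107 CPM in its controls (SD, n = 6), and the PFO5DoA effect on both rising IDs was higher than that of PFO4DA (edgeR, adjusted p = 0.00709 and 0.000567).

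The lists that PFO4DA defined could be followed through the lower doses of PFO5DoA. The 262 genes that rose under PFO4DA had medians of 0.25 to 0.47 over the fetal libraries at 0.3 mg/kg/d PFO5DoA, 0.83 to 1.20 at 1, 1.15 to 1.48 at 3, 1.09 to 1.69 at 10 and 1.08 to 1.24 at 30 mg/kg/d, on the log2 scale relative to the PFO5DoA control mean. Control libraries lay between -0.12 and 0.14. The ranges at 3, 10 and 30 mg/kg/d overlapped, so the list was no higher at 30 than at 3 mg/kg/d beyond the spread of litters. The 184 genes that fell under PFO4DA had medians of -0.16 to -0.06 at 0.3 mg/kg/d, -0.49 to -0.31 at 1, -1.05 to -0.90 at 3, -1.54 to -1.24 at 10 and -1.70 to -1.46 at 30 mg/kg/d, against -0.34 to 0.23 in the controls. This list declined over the doses, with ranges that overlapped at 10 and 30 mg/kg/d.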

How the data were processed

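The authors deposited estimated counts (not normalized) for 20311 genes, as 1 table per compound. Per the submitters' processing notes Partek, STAR 2.7.8a, DESeq2 and the build mRatBN7.2 were used; which step each made is not given in the sources used here. Columns were mapped to dose groups through the dam identifier, and to life stage by the correlation described above. The counts were rounded and fitted with edgeR 4.0.16 in R 4.3.3 (filterByExpr, TMM scaling, estimateDisp, robust glmQLFit and glmQLFTest), with Benjamini-Hochberg adjustment over all genes tested. DESeq2 1.42.0 and limma 3.58.1 were alternatives. Genes were called at an adjusted p under 0.05. The standard error of a fitted log2 change is its size over the square root of the F statistic of its test.

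Levels are CPM scaled by TMM over all fetal libraries of both compounds, or over all maternal ones, and list medians use log2 CPM with a prior count of 2. Litters are separate animals, and n counts litters. No library pair within a group agreed within sampling noise (chi-square per degree of freedom 35.8 or more, over genes with 20 counts or more in the pair). The members, lists and tests were chosen with earlier results of these data known. The planned gene lists (39) and the part of the naming rule that asks for a gene symbol could not be applied, since no ID matched a name; the rule was otherwise kept, and at most 2 IDs in each direction are given. The steps were checked on simulated counts.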

Additional observations from a re-analysis of the deposited data

Results flagged for a closer look

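The effect of 30 mg/kg/d PFO5DoA differed between fetal and maternal liver for 990 genes, by the direct test of the difference with the dam as a block. The effect in fetal liver differed between PFO5DoA and PFO4DA at 30 mg/kg/d for 1116 genes, by the test of the interaction.

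Single libraries lay far from the others of their group in 8 of 70 groups examined. The nominal rate of about 1 in 20 need not hold in groups at or near 0 counts, so the flags are not read as an excess. ENSRNOG00000027341 was at 3.72 CPM in the fetal library of dam 2284 at 10 mg/kg/d PFO5DoA, against at most 0.25 CPM in the other litters of that dose. At 3 mg/kg/d PFO5DoA, the set called as rising at 30 mg/kg/d held 21.9% of the counts in dam 2282, against 17.7% to 18.4% in the other litters. ENSRNOG00000069588 was at 31.2 CPM in control dam 2265, against 19.2 to 22.6 CPM in the other PFO5DoA controls. In fetal liver under PFO4DA, the same gene was at 24.0 CPM in dam 2297 at 0.3 mg/kg/d, against 12.6 to 13.6 CPM, and at 5.46 CPM in dam 2315 at 3 mg/kg/d, against 17.3 to 18.5 CPM. ENSRNOG00000001794 was at 1.31 CPM in PFO4DA control dam 2308, at 0.624 CPM in dam 2296 at 0.3 mg/kg/d and at 2.04 CPM in dam 2304 at 10 mg/kg/d, against at most 0.318, 0 and 0.0952 CPM in the other litters of those groups.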

How the results depend on the processing

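The 4 example IDs kept their direction and their call in every alternative fit of fetal liver at 30 mg/kg/d PFO5DoA that gave them a value. They were selected as extremes on libraries that these fits mostly reuse, so this was largely set by the selection. A minimum fold of 2 left 499 genes for that comparison, 167 for the difference between the livers and 160 for the difference between the compounds, as a stricter test would. DESeq2 gave 755 genes for fetal liver at 30 mg/kg/d PFO4DA, and the later dam identifiers alone gave 351 for the difference between compounds. Leaving out 1 library at a time, the counts ranged from 1159 to 2685 for fetal liver at 30 mg/kg/d PFO5DoA, 576 to 1191 for the difference between compounds, 1356 to 2967 for maternal liver and 296 to 459 for PFO4DA. Leaving out 1 dam at a time, the difference between the livers ranged from 327 to 1403. With the 6 fetal controls of PFO4DA in place of its own controls, an alternative chosen after seeing the data, fetal liver at 30 mg/kg/d PFO5DoA gave 3564 genes, and 2104 of the reported genes were called in the same direction. The log2 fold change of ENSRNOG00000001794 was 5.95 against those controls.

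Same-numbered fetal libraries of both dose groups did not deviate together (r of 0.11, -0.26 and -0.03), so the numbers do not pair them. With the replicate block, 2720 genes changed in fetal liver at 30 mg/kg/d and 865 differed between compounds; with no replicate block for the dam, 845 differed between the livers. Stage by marker genes was not run, for lack of gene names, and the fetal library of dam 2279 was too shallow to be added. With 3 dosed litters, the floor of 3 counts stands for 0.0995 CPM over the group, and falls of genes near that level were not detectable at this depth.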

Other observations

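Few genes were switched fully on or off. There were 3 genes with no count in the 5 control litters and at least 10 counts in each litter at 30 mg/kg/d, and 3 genes with no count at 30 mg/kg/d and at least 10 counts in each control. All 6 were called, which the rule that picked them largely sets, and their summed counts were at most 700 and 181. The first 3 include ENSRNOG00000001794, which had 18 counts over the fetal controls of PFO4DA, so it was not off in all controls of the series.

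Among genes with a mean of at least 5 CPM in either group, 73 were called with a fitted change of at least 16-fold, and 5 had so large a fitted change without being called. All 5 were lower at 30 mg/kg/d. In 4 of them the highest level of the 8 libraries was in control dam 2278, and in the remaining 1 in control dam 2263. The highest library held a median of 96.6% of the summed level of the 8 libraries, and 35.7% in the gene where its share was lowest.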
